A study of Mus musculus with 8 samples.

Results

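Circadian clock genes were examined in lung endothelial cells (ECs) of neonatal mice reared in room air or in hyperoxia. The 10 genes, which are Clock, Per1, Per2, Per3, Cry1, Cry2, Nr1d1, Nr1d2, Dbp and Tef, were chosen by symbol, and each had 1 row among the 54532 genes of the deposited count table. All 10 passed the filter on low counts, with which 15564 genes were tested. The libraries came from wild-type C57BL/6J pups that were kept at 21% O2 (normoxia, 4 libraries) or at 80% O2 (hyperoxia, 4 libraries) from postnatal day 0 and collected on day 14, with nursing dams moved between the groups each day. Per the methods of the study, lung cells were depleted of CD45+ leukocytes and then bound to CD31-coated beads, CD31 being a surface protein of ECs. Neither the number of pups behind a library nor shared litters are stated, so the p-values measure the spread between these libraries. Mice lived in a light and dark cycle, but the labels give no time of day at collection for any library, and its part in the values below was not tested.

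The circadian clock is a feedback loop of transcription that runs in nearly every cell of the body. CLOCK and its partner BMAL1, the product of Arntl, bind DNA elements called E-boxes and activate the Per and Cry genes, whose products return to the nucleus and repress CLOCK and BMAL1. A second loop is formed by the nuclear receptors REV-ERBα (Nr1d1) and REV-ERBβ (Nr1d2), which repress Arntl, and by the ROR receptors, which activate it. Dbp and Tef encode transcription factors of the PAR bZIP family, which carry the rhythm to output genes through elements called D-boxes. In the lung, the clock is known to run in several cell types, and levels of most of these transcripts change over the day.

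RefSeq promoter windows (build GRCm38.p6), which run from 250 bases before to 50 bases after an annotated start, were found for 9 of the 10 genes, and Per2 had none in the table used. The windows are shown for the gene with the largest rise, Per1, for the gene with the largest fall, Per3, and for Cry1, because they carry the E-box and D-box letters through which the loop and its outputs are known to act. Each is written 5′ to 3′ on the strand of the gene, and capitals mark the motifs.
Per1 (chr11:69098699-69098998, plus strand): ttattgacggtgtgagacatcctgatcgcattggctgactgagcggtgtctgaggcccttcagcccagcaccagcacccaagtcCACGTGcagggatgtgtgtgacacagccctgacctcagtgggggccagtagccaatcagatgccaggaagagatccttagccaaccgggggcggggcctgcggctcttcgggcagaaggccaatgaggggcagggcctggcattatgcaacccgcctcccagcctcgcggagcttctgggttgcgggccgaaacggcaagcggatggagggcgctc
Per3 (chr4:151044616-151044915, minus strand): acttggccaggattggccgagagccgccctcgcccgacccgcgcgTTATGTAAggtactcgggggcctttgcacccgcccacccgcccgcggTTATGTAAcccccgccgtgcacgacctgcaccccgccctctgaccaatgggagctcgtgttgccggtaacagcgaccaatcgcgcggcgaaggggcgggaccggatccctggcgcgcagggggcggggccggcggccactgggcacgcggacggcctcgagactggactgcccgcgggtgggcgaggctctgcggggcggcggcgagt
Cry1 (chr10:85185005-85185304, minus strand): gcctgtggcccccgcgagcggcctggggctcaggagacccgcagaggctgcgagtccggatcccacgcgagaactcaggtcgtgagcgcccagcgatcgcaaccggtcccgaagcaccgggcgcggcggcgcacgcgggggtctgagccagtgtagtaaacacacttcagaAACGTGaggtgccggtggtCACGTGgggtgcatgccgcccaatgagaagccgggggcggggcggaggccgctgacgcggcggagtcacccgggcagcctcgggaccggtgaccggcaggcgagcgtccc
Searched on both strands were the E-box CACGTG, a variant E-box CACGTT, the D-box as TTATGTAA or TTACGTAA, the cAMP response element TGACGTCA and the ROR element core as TAGGTCA or TGGGTCA. The motifs do not contain one another, and each hit in capitals is a separate stretch. This Per1 window held 1 E-box, beginning 166 bases before the start. The Per3 window held 2 D-boxes, beginning 205 and 158 bases before it. In the Cry1 window an E-box began 60 bases and a variant E-box, read on the other strand as AACGTG, 79 bases before the start. Of the windows not shown, both of Tef held an E-box, those of Cry2 and Nr1d1 held a variant E-box, and the second of Per1, the one of Dbp, the one of Nr1d2 and the 3 of Clock held none of these letters. Among all 32851 windows of the table, the E-box was found in 7.15%, the variant E-box in 4.68%, the D-box in 1.06%, the cAMP response element in 1.79% and the ROR core in 6.45%. These matches describe letters in the windows and do not show that a factor was bound there.

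Libraries held 16098086 to 18300730 counts. ECs dominated the marker lists, with 10 endothelial markers summing to 16717 to 17840 CPM (counts scaled to the normalized library size) in normoxia and 16983 to 17898 CPM in hyperoxia. Single endothelial markers did differ, with 4 of the 10 higher and 3 lower in hyperoxia at an adjusted p under 0.05 (edgeR). Tek showed the largest decrease (-0.79 in log2, adjusted p 6.35e-06) and Eng the largest increase (0.43 in log2, adjusted p 1.52e-05). Markers of other lung cells also moved with the groups. The 10 alveolar type 2 markers summed to 292 to 433 CPM in normoxia and 878 to 2630 CPM in hyperoxia, and the 10 alveolar type 1 markers to 77.8 to 97.9 and 170.1 to 497 CPM. All 20 of these epithelial genes were higher at an adjusted p under 0.05. Fibroblast markers (5 of 9 tested higher, none lower) summed to 212 to 425 CPM in normoxia and 294 to 752 CPM in hyperoxia, and mural markers (6 of 9 tested higher, none lower) to 45.9 to 82.5 and 101 to 177 CPM. Leukocyte markers (1 of 9 tested higher, Marco, and 1 lower, Cd68) summed to 115 to 232 and 116 to 240 CPM, with Ly6g at no more than 4 counts in any library. The part of these cells in the results below was not tested. Hyperoxia 3 held the fewest epithelial, fibroblast and mural counts of its group, with 170.1 CPM of alveolar type 1 markers, where the other 3 had 449 to 497. Hyperoxia 1 stood apart in the clock genes themselves, as described after the comparisons. In such bulk libraries fewer cells of a type and less RNA per cell cannot be told apart.

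The first question was how strongly each clock gene was expressed. Levels between genes were compared in FPKM (fragments scaled to gene length and library size, as deposited), since the genes differ in length from 2993 bases for Dbp to 13727 bases for Clock. Per1 stood highest in both groups, at 29.9 ± 7.67 FPKM in normoxia and 67.0 ± 3.70 FPKM in hyperoxia (SD, n = 4 each). It was followed in normoxia by Nr1d2 (19.7 ± 0.990 FPKM), Tef (16.2 ± 0.347), Cry1 (9.51 ± 0.833), Clock (7.43 ± 0.333), Nr1d1 (6.73 ± 0.788), Per2 (6.25 ± 0.473), Cry2 (4.69 ± 0.297), Dbp (3.92 ± 0.517) and Per3 (3.85 ± 0.440). The ranges over the 4 normoxia libraries overlapped between Per1 and Nr1d2, between Clock and Nr1d1, between Nr1d1 and Per2 and between Dbp and Per3, so the order within these pairs was not beyond the spread. The other 5 neighbouring pairs did not overlap. Among all genes tested, Per1 lay at the 90.0th percentile of FPKM in normoxia and at the 95.7th in hyperoxia, and Per3 moved from the 47.7th to the 36.6th.

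In hyperoxia the order shifted at 1 place, where Nr1d1 (9.68 ± 2.14 FPKM) stood above Cry1 (7.66 ± 0.339) and Clock (7.43 ± 0.215), with overlapping ranges. Per1 no longer overlapped with Nr1d2 (16.8 ± 1.78 FPKM). Only 1 other neighbouring pair, Cry2 (4.95 ± 0.565 FPKM) and Dbp (3.32 ± 0.922), did not overlap in this group. Tef stood at 13.4 ± 1.76 FPKM, Per2 at 6.38 ± 1.18 FPKM and Per3 at 2.36 ± 0.246 FPKM.

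**Figure D1:**
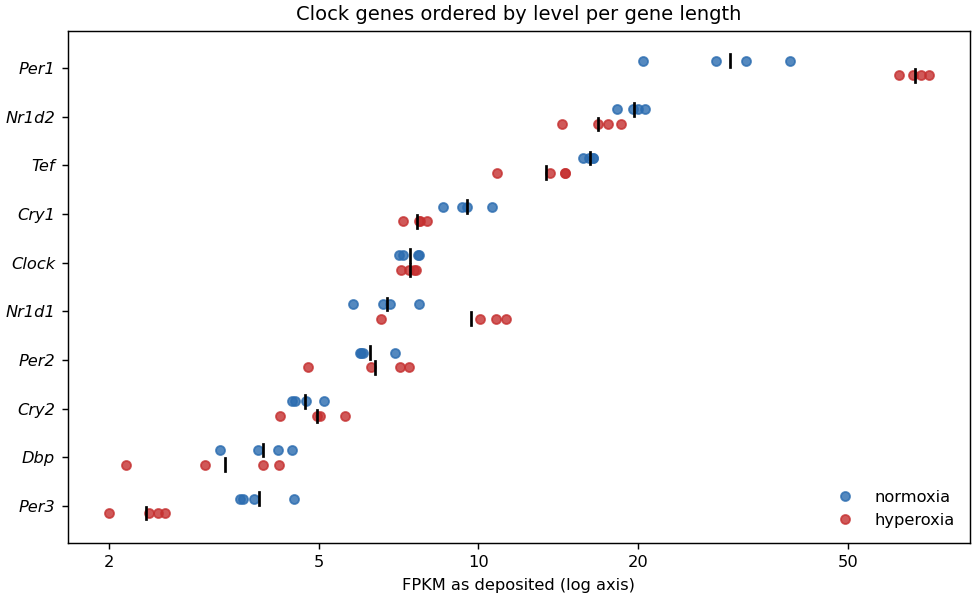
Level per gene length of the 10 clock genes, with FPKM on a logarithmic axis and genes ordered by their normoxia mean. Points are the 8 libraries (blue for normoxia, red for hyperoxia) and black ticks are group means. Per1 lies highest in both groups, at a mean of 29.9 FPKM in normoxia and 67.0 FPKM in hyperoxia.

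The comparison of hyperoxia with normoxia asked which of these genes differed in ECs after 14 days of exposure. Of the 10, 6 had an adjusted p under 0.05 in edgeR's quasi-likelihood test, 2 higher (Per1 and Nr1d1) and 4 lower (Per3, Cry1, Tef and Nr1d2), while Clock, Per2, Cry2 and Dbp were not past the threshold. Over all 15564 genes 35.6% were past it, 18.5% higher and 17.1% lower, so the count is to be read against a background of widespread change. When a log2 fold change of 1 or more in size was also asked for, Per1 was the only member called, against 6.98% of all genes (5.62% higher and 1.36% lower). The groups did not overlap in 4 members, which are Per1, Per3, Cry1 and Tef, and in 35.4% of all genes (17.8% higher and 17.6% lower in hyperoxia). The median log2 fold change of the 10 was -0.12, against -0.0040 over all genes tested. Per1 and Per3 had called changes of opposite sign, and so had Nr1d1 and Nr1d2. The plot of CPM by library and the plot of fold changes show these values.

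The Period genes encode the PER proteins, which form the repressor complex with the CRY proteins. The Per1 transcript is also known to be induced quickly by light, cAMP signalling and glucocorticoids, which is not meant as a trait of Per1 alone. Per1 (ENSMUSG00000020893, chromosome 11, 69095217 to 69109960, GRCm38, plus strand) had 116, 222, 160 and 182 CPM in the 4 normoxia libraries and 354, 401, 374 and 389 CPM in the 4 hyperoxia libraries. Every hyperoxia library lay above every normoxia library, and the normoxia libraries were the more scattered. Its log2 fold change was 1.16 (SE 0.154, 95% interval 0.82 to 1.498, adjusted p 0.000218), a rise of 2.23-fold, and its size lay at the 94.2th percentile of all genes tested. Hyperoxia 3, with the fewest epithelial counts of its group, stood at 374 CPM, and without it the log2 fold change was 1.17 (adjusted p 0.00047). That fit keeps the hyperoxia libraries with more epithelial counts, so it cannot show the part of these cells, which was not tested.

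Per3 moved the other way. Its product is thought to play a smaller part in the core loop than the other PER proteins. Per3 (ENSMUSG00000028957, chromosome 4, 151003652 to 151044665, minus strand) had 34.2, 43.8, 34.7 and 36.4 CPM in normoxia and 19.4, 23.0, 24.7 and 24.0 CPM in hyperoxia. The groups lay well apart, with the highest hyperoxia library below the lowest normoxia library. The log2 fold change was -0.71 (SE 0.0978, 95% interval -0.93 to -0.50, adjusted p 0.000274).

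Per2, a core repressor of the loop, had no difference past the spread of its libraries. Per2 (ENSMUSG00000055866, chromosome 1, 91415982 to 91459324, minus strand) had 35.2, 41.3, 35.7 and 35.4 CPM in normoxia and 28.1, 36.8, 41.7 and 43.5 CPM in hyperoxia. Hyperoxia 1 was the lowest and hyperoxia 4 the highest of all 8 libraries, so the hyperoxia range enclosed that of normoxia. Its log2 fold change of 0.03 had a 95% interval of -0.24 to 0.29 (adjusted p 0.891). Summed over the 3 Period genes, the level per length was 40.0 ± 8.45 FPKM in normoxia and 75.7 ± 4.72 FPKM in hyperoxia (SD, n = 4 each). Per1 made up 68.3% to 77.3% of that sum in normoxia and 87.3% to 90.2% in hyperoxia.

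**Figure D2:**
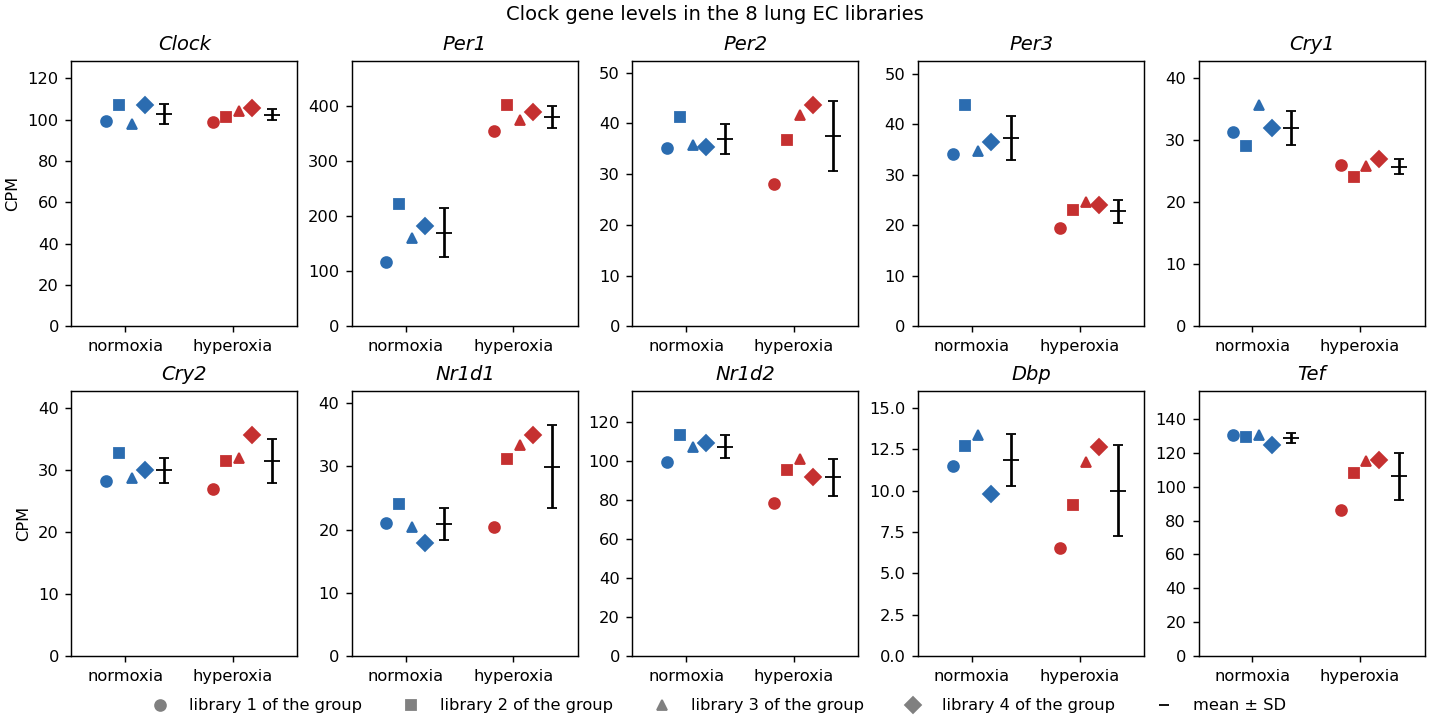
CPM of the 10 clock genes in each library, 1 panel per gene with its axis starting at 0. Coloured symbols are libraries 1 to 4 of normoxia (blue) and hyperoxia (red), and the black bar is the group mean ± SD. Per1 lies higher in all 4 hyperoxia libraries (354 to 401 CPM) than in normoxia (116 to 222 CPM), Per3, Cry1 and Tef lie lower without overlap, and hyperoxia 1 is the lowest red symbol in every panel but that of Cry1.

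The cryptochromes CRY1 and CRY2 are the repressors that act on CLOCK and BMAL1 most directly. Cry1 (ENSMUSG00000020038, chromosome 10, 85131700 to 85185064, minus strand) had 31.3, 29.1, 35.6 and 32.0 CPM in normoxia and 26.0, 24.1, 25.9 and 26.9 CPM in hyperoxia. The hyperoxia libraries were tightly grouped below all normoxia libraries. The fall was modest, at -0.32 in log2 (SE 0.0717, 95% interval -0.47 to -0.16, adjusted p 0.00587). Cry2 (ENSMUSG00000068742, chromosome 2, 92403646 to 92434043, minus strand) had 28.2, 32.7, 28.7 and 29.99 CPM in normoxia and 26.9, 31.4, 31.8 and 35.6 CPM in hyperoxia. These ranges overlapped, and the log2 fold change of 0.07 had a 95% interval of -0.12 to 0.26 (adjusted p 0.555). The ratio of Cry2 to Cry1 in FPKM ran from 0.426 to 0.595 in normoxia and from 0.547 to 0.700 in hyperoxia. An antisense gene, D930015M05Rik, which was too low to be tested, covers 4.67% of the exon bases of Cry2.

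The REV-ERB receptors are the repressors of the second loop. Nr1d1 (ENSMUSG00000020889, chromosome 11, 98767932 to 98775333, minus strand) had 21.1, 24.1, 20.5 and 17.95 CPM in normoxia and 20.3, 31.1, 33.4 and 34.9 CPM in hyperoxia. Of the hyperoxia libraries, 3 lay above all normoxia libraries, and hyperoxia 1 lay within the normoxia range. The log2 fold change was 0.52 (SE 0.155, 95% interval 0.18 to 0.86, adjusted p 0.0232). This call did not hold in every fit that left out 1 library. Without hyperoxia 1 the log2 fold change was 0.67 (adjusted p 0.000557). Without normoxia 3, normoxia 4, hyperoxia 2, hyperoxia 3 or hyperoxia 4 the adjusted p was 0.05, 0.0697, 0.0572, 0.0556 and 0.065. The log2 fold changes of those fits were 0.44 to 0.51. Of the exon bases of Nr1d1, 8.55% overlap Thra, a gene on the other strand that went from 172 to 106 CPM (change of -0.69 in log2, with adjusted p 1.74e-06), and the use of strand in counting is not given in the sources used here, so part of the Nr1d1 count is uncertain.

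Nr1d2 (ENSMUSG00000021775, chromosome 14, 18204054 to 18239127, minus strand) was the more abundant of the pair and was lower in hyperoxia. It had 99.6, 113, 107 and 109 CPM in normoxia and 78.5, 95.4, 101 and 91.5 CPM in hyperoxia. Hyperoxia 3 reached above normoxia 1, so the groups overlapped narrowly. The log2 fold change was -0.23 (SE 0.0739, 95% interval -0.39 to -0.07, adjusted p 0.0335). Without hyperoxia 1 it was -0.16 (adjusted p 0.0613), and the call was also lost without normoxia 2, normoxia 3, normoxia 4, hyperoxia 2 or hyperoxia 4 (adjusted p 0.0803, 0.056, 0.0761, 0.051 and 0.0686). The ratio of Nr1d2 to Nr1d1 in FPKM was 2.68 to 3.46 in normoxia and 1.49 to 2.20 in hyperoxia.

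Among the output genes, Tef fell. Tef (ENSMUSG00000022389, chromosome 15, 81802421 to 81826863, plus strand) had 130.2, 129, 130.5 and 125 CPM in normoxia and 86.1, 108, 115 and 115 CPM in hyperoxia. Normoxia libraries were nearly alike, and all 4 hyperoxia libraries lay below them, hyperoxia 1 farthest. The log2 fold change was -0.28 (SE 0.0823, 95% interval -0.46 to -0.10, adjusted p 0.0225), and it was -0.19 without hyperoxia 1 (adjusted p 0.0126). An antisense gene, Gm17597, too low to be tested, covers 2.45% of its exon bases. Dbp (ENSMUSG00000059824, chromosome 7, 45705088 to 45710203, plus strand) had 11.5, 12.7, 13.4 and 9.78 CPM in normoxia and 6.51, 9.12, 11.7 and 12.6 CPM in hyperoxia. The groups overlapped, with hyperoxia 1 lowest of all libraries. Its log2 fold change of -0.24 had a wide 95% interval of -0.66 to 0.18 (adjusted p 0.353), and it was -0.08 without hyperoxia 1. The gene Sphk2 on the other strand, at 21.1 CPM in normoxia, shares 18.01% of the exon bases of Dbp, the largest overlap of any member, which leaves part of its count uncertain.

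Clock encodes the DNA-binding partner of BMAL1 and is known for a flat profile over the day in many tissues. Clock (ENSMUSG00000029238, chromosome 5, 76209868 to 76304792, minus strand) had 99.4, 107, 97.8 and 107 CPM in normoxia and 98.9, 102, 104 and 105 CPM in hyperoxia. The ranges coincided almost fully. Its log2 fold change of -0.0040 had the narrowest interval of the 10 genes, from -0.11 to 0.10 (adjusted p 0.957).

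**Figure D3:**
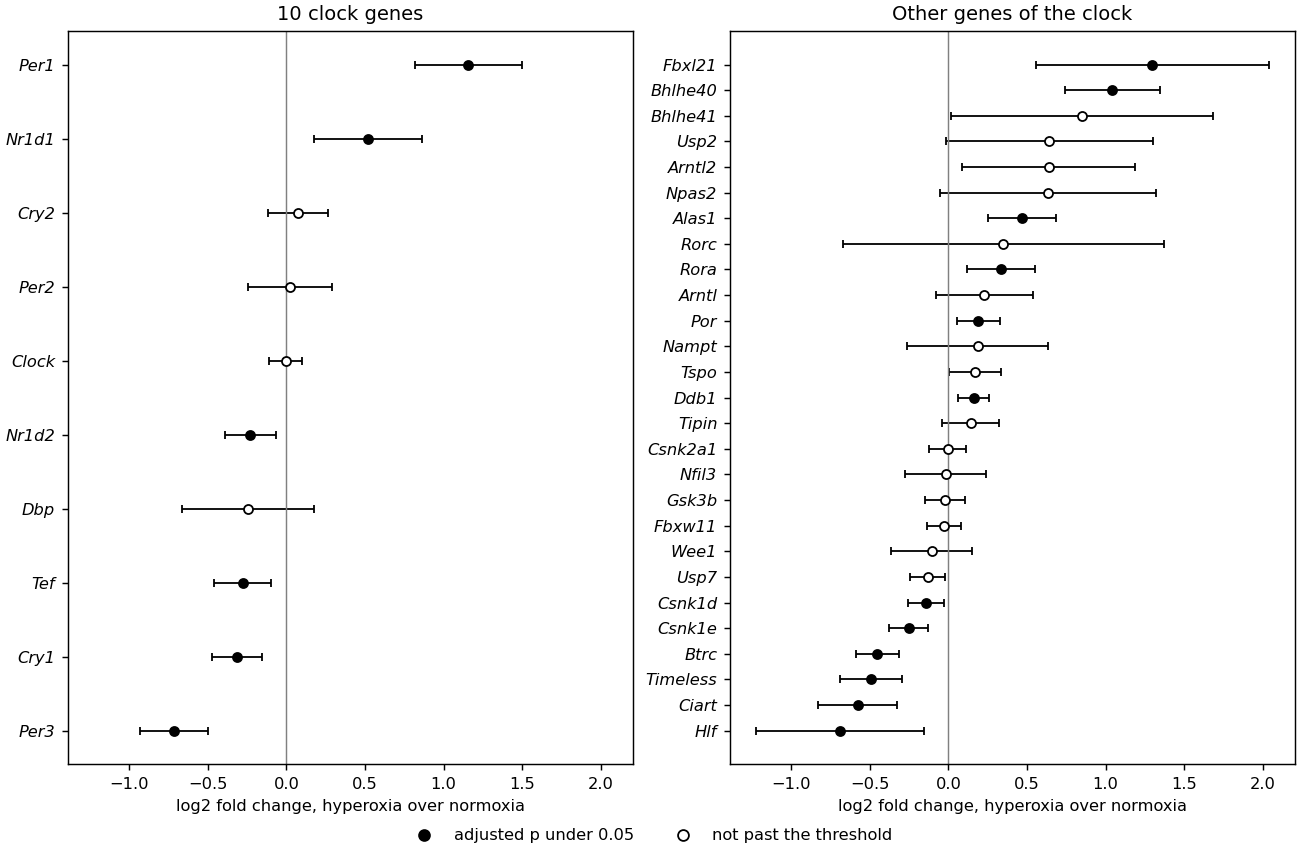
Log2 fold change of hyperoxia over normoxia with its 95% interval for the 10 clock genes (left) and the 27 tested genes of the other clock lists (right). Filled symbols had an adjusted p under 0.05. Per1 (1.16) and Nr1d1 (0.52) lie to the right and Per3 (-0.71), Cry1, Tef and Nr1d2 to the left of 0, and Bhlhe40 and Ciart stand on opposite sides in the right panel.

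The 6 calls were tested against other processing. Per1, Per3, Cry1 and Tef were past the threshold under 16 of 17 alternatives each, leaving out any 1 library included, with log2 fold changes of 1.01 to 1.44, -0.75 to -0.37, -0.36 to -0.26 and -0.32 to -0.03. The exception was a fit with the mean log2 CPM of the 20 epithelial markers as a covariate. That score ran from 2.59 to 3.22 in normoxia and from 4.34 to 5.83 in hyperoxia, so it was nearly tied to the group, and 243 of all genes were past the threshold in this fit. None of the 10 members was past it there (edgeR, 1 of 10 at an unadjusted p under 0.05), with a log2 fold change of 1.44 for Per1 (adjusted p 0.162), -0.37 for Per3 (0.623), -0.30 for Cry1 (0.612) and -0.03 for Tef (0.968).

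The clock genes also varied among libraries of 1 group. Hyperoxia 1 had the lowest CPM of its group in 9 of the 10 members, Cry1 being the exception, whereas it was the lowest in 28.3% of all genes tested. Its log2 CPM lay below the mean of the other 3 hyperoxia libraries by values of -0.75 for Dbp, -0.70 for Nr1d1, -0.53 for Per2, -0.39 for Tef, -0.30 for Per3, -0.29 for Nr1d2 and -0.29 for Cry2. Only 2.08% of all genes lay as far down in that library as Dbp, and 2.42% as far down as Nr1d1. Arntl, which REV-ERB receptors repress, was highest there, with 14.5 CPM where the other 3 had 11.4 to 12.5, and so was Nampt, with 141 CPM where they had 63.2 to 88.9. Hyperoxia 4 had the highest CPM of the group in 7 of the 10 members, and it was highest in 23.1% of all genes. Within normoxia, library 2 was the highest in 7 of the 10 members, against 28.8% of all genes, and library 1 the lowest in 5, against 23.5%. These genes are linked in 1 loop, so their positions in a library are not independent of one another. Total counts of hyperoxia 1 (17601052) and hyperoxia 4 (18059845) were close, and hyperoxia 1 had the highest sums of epithelial and leukocyte markers of its group.

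**Figure D4:**
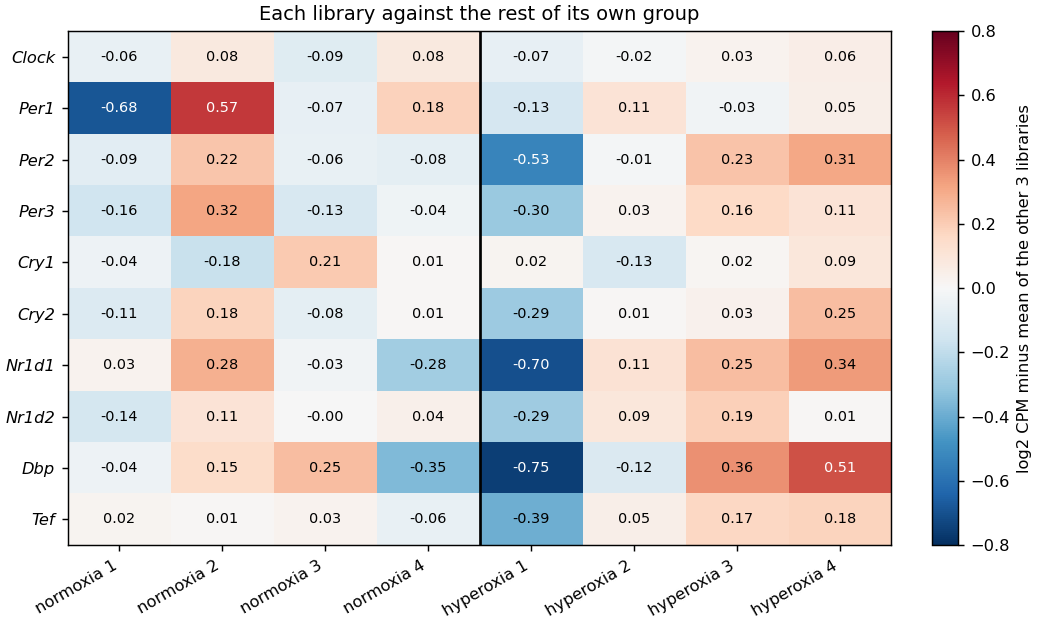
Deviation of each library from the mean of the other 3 libraries of its group, as log2 CPM, with 1 row per clock gene and 1 column per library. Blue is lower and red is higher, and each cell prints its value. The column of hyperoxia 1 is negative for every gene but Cry1 and reaches -0.75 for Dbp, and in normoxia the largest deviations are those of Per1 in libraries 1 (-0.68) and 2 (0.57).

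The spread within a group differed between members. In hyperoxia the SD of log2 CPM was 0.43 for Dbp, 0.36 for Nr1d1 and 0.28 for Per2, which placed them at the 87.0th, 82.5th and 76.1th percentiles of all genes tested, and it was 0.04 for Clock, at the 8.83th. In normoxia Per1 was the most variable, with an SD of 0.39 at the 83.5th percentile, and Tef the least, with an SD of 0.03 at the 2.26th. Thus Per1 was variable in normoxia and narrow in hyperoxia (SD 0.08, 29.9th percentile), while Tef showed the reverse order (SD 0.20, 65.9th percentile in hyperoxia). The difference in spread between groups was not tested.

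Other genes of the clock were taken from 4 lists of 29 genes, of which 27 were tested. Of these, 6 were called higher and 6 lower, where 18.5% of all genes were called higher and 17.1% lower, and the median log2 fold change was 0.16, against -0.0040 over all genes tested. Among the activators, Arntl had 11.1, 11.8, 7.89 and 11.6 CPM in normoxia and 14.5, 12.5, 11.4 and 11.4 CPM in hyperoxia, which did not pass the threshold (log2 fold change 0.23, 95% interval -0.08 to 0.54, adjusted p 0.232). Npas2, which can stand in for Clock, was scarce at 1.03 and 1.597 CPM on average (adjusted p 0.14). Rora rose from 20.7 ± 2.53 to 26.2 ± 2.25 CPM (change of 0.34 in log2, with adjusted p 0.0203), a call that was lost without normoxia 1, normoxia 3, hyperoxia 2 or hyperoxia 4 (adjusted p 0.0546, 0.052, 0.0557 and 0.0582). Rorb had at most 9 counts in a library and was not tested.

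Of the 6 genes listed as additional repressors, 1 was called higher and 2 were called lower, beside 18.5% and 17.1% of all genes. The other 3 were not past the threshold. Bhlhe40, which encodes DEC1, a repressor that competes for E-boxes and is also induced by many stimuli, had 84.1, 117, 80.2 and 104 CPM in normoxia and 154, 215, 219 and 208 CPM in hyperoxia. It was higher in all 4 hyperoxia libraries, by 1.04 on the log2 scale (SE 0.137, adjusted p 0.000201). Ciart, which encodes the repressor CHRONO, had 71.4, 84.7, 56.5 and 72.4 CPM in normoxia and 42.7, 47.3, 54.7 and 46.3 CPM in hyperoxia. All its hyperoxia values lay lower, with a change of -0.58 on the log2 scale (SE 0.114, adjusted p 0.00261). Timeless, whose product is known mainly for replication forks in mammals, fell from 146 ± 15.1 to 103 ± 11.4 CPM (change of -0.49 in log2, with adjusted p 0.0016). Nfil3, which competes with DBP and TEF for D-boxes, stood at 14.2 and 14.1 CPM (adjusted p 0.931).

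Hlf, the third gene of the PAR bZIP family, was low, with a mean of 3.85 ± 0.565 CPM in normoxia and 2.38 ± 0.860 CPM under hyperoxia. Its log2 fold change of -0.69 was just past the threshold (adjusted p 0.0474) and was lost in 6 of the 8 fits that left out 1 library, which were all but those without normoxia 4 and hyperoxia 4 (adjusted p 0.08 to 0.11 in the 6). Of the remaining output genes, Alas1, the first enzyme of heme synthesis, rose from 99.96 ± 12.7 to 138 ± 14.8 CPM (change of 0.47 in log2, with adjusted p 0.00378). Por rose by a smaller log2 fold change of 0.19 (adjusted p 0.0357), a call that held only without normoxia 1 or hyperoxia 1 among the fits that left out 1 library (adjusted p 0.0575 to 0.106 in the other 6). Wee1 (adjusted p 0.517), Nampt (0.513), Usp2 (0.119) and Tspo (0.0997) were not past the threshold. Of 9 kinases, ubiquitin ligases and related genes that set the lifetime of PER and CRY proteins, 2 were called higher and 3 were called lower, with 35.6% of all genes called in either direction. Csnk1e, the casein kinase 1 epsilon that phosphorylates PER, went from 191 ± 13.7 to 160.1 ± 4.96 CPM (change of -0.25 in log2, with adjusted p 0.00493). Btrc, a ligase subunit that recognises phosphorylated PER, fell from 56.0 ± 2.94 to 41.0 ± 2.67 CPM (change of -0.45 in log2, with adjusted p 0.000243). Fbxl21 was called higher (1.30 in log2, adjusted p 0.0116) but was below 1 CPM in every library.

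Per1 is also known as a target of glucocorticoids and as an immediate early gene, so lists of both kinds were read from the same fit. The part of either in the Per1 values was not tested. Of 11 glucocorticoid-responsive genes, 10 were tested, 5 were higher and 1 was lower, beside 18.5% and 17.1% of all genes. Klf9, a transcription factor that glucocorticoids induce, had 58.6, 95.4, 62.2 and 80.2 CPM in normoxia and 107, 130.3, 133 and 130.4 CPM in hyperoxia (log2 fold change 0.76, SE 0.140, adjusted p 0.00177). Its groups did not overlap. Sgk1 rose from 723 to 878 CPM (change of 0.28 in log2, with adjusted p 0.0078), Mt1 rose from 2.33 to 7.22 CPM (1.63, 0.00684), and Dusp1 (0.23, 0.0255) and Errfi1 (0.32, 0.0398) also passed. The Dusp1 call was lost without normoxia 3, normoxia 4, hyperoxia 2 or hyperoxia 4 (adjusted p 0.0604 to 0.0708), and the Errfi1 call without normoxia 1, normoxia 3, hyperoxia 1, hyperoxia 2 or hyperoxia 4 (adjusted p 0.0569 to 0.11). Fkbp5 (18.1 and 19.1 CPM, adjusted p 0.592), Tsc22d3 (140.1 and 154 CPM, 0.156) and Zbtb16 (6.49 and 6.87 CPM, 0.815) were not past the threshold. Neither was Pdk4 (2.11 and 2.86 CPM, log2 fold change 0.43, adjusted p 0.0792), though its groups did not overlap. Nr3c1, the glucocorticoid receptor gene, fell from 227 to 196 CPM (-0.21, 0.00386).

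The list of 12 immediate early genes, which respond quickly to stimuli and to cell dissociation, also held the heat shock genes Hspa1a and Hspa1b. Of the 12, 2 were higher and none was lower, beside 18.5% and 17.1% of all genes. Hspa1a (log2 fold change -0.18, adjusted p 0.618) and Hspa1b (-0.30, 0.359) had the lowest log2 fold changes of the list and enter its median below. Fos rose from 745 ± 55.3 to 855 ± 40.3 CPM (change of 0.20 in log2, with adjusted p 0.0252) and Nr4a1 from 502 ± 91.2 to 653 ± 59.4 CPM (0.38, 0.0228). The Fos call was lost without normoxia 1, normoxia 3 or hyperoxia 4 (adjusted p 0.0631 to 0.0744), and the Nr4a1 call without these or without normoxia 4 or hyperoxia 2 (adjusted p 0.0589 to 0.0629). Jun (1294 and 1290.1 CPM, adjusted p 0.969), Egr1 (571 and 600 CPM, 0.64) and Ier2 (557 and 546 CPM, 0.744) were not past the threshold. Also not past it were Atf3 (log2 fold change 0.34, adjusted p 0.0669), Fosl2 (0.35, 0.186) and Fosb (0.27, 0.226), which leaned higher. Junb (-0.09, 0.222) and Egr2 (-0.15, 0.456) leaned lower and were not past it either. The median log2 fold change of the list was 0.03, against -0.0040 over all genes tested. The count of 2 did not hold when libraries were left out, since it was 0 without normoxia 1, normoxia 3 or hyperoxia 4 (edgeR, 2, 3 and 3 at an unadjusted p under 0.05), 1 without hyperoxia 2, 3 without normoxia 4 and 4 without normoxia 2.

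**Figure D5:**
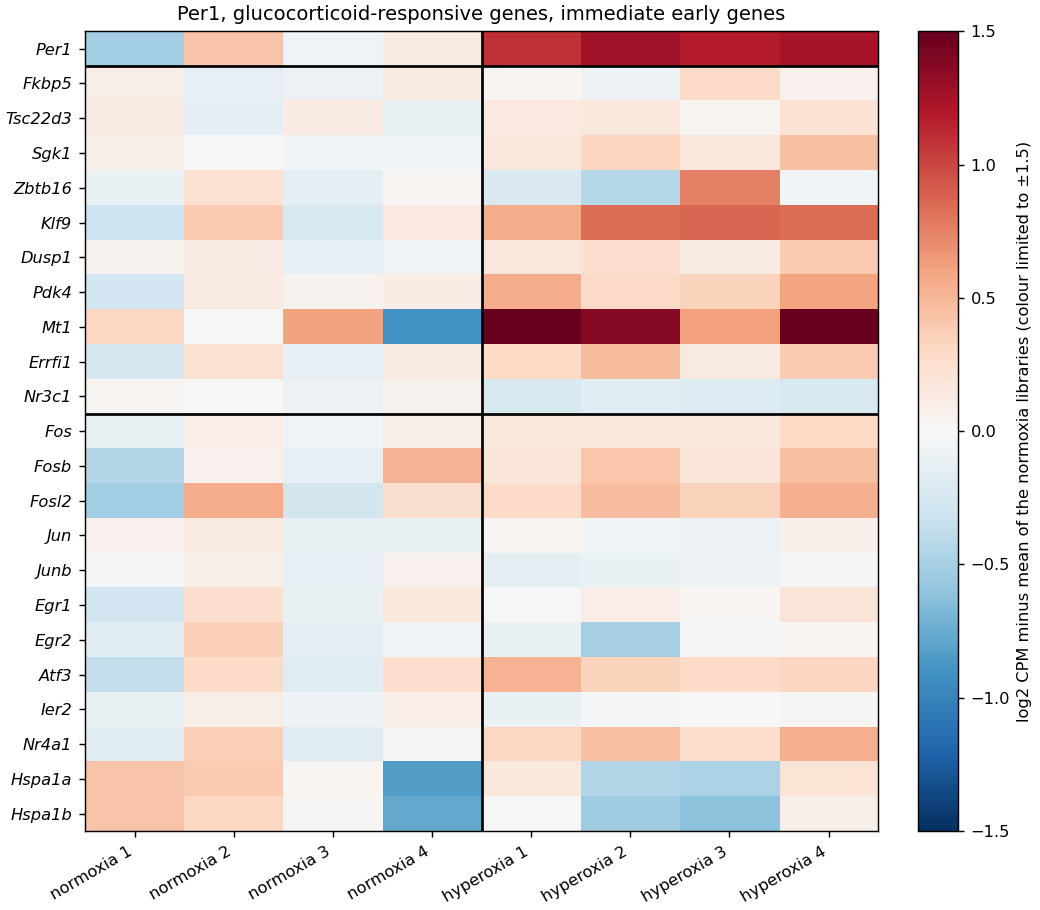
Log2 CPM of Per1 (top row), the 10 tested glucocorticoid-responsive genes (middle block) and the 12 genes of the immediate early list (bottom block) in each library, minus the mean of the 4 normoxia libraries. The bottom block includes the heat shock genes Hspa1a and Hspa1b. Red is higher and blue is lower, with the colour limited to ±1.5. Per1 and Klf9 are red in all 4 hyperoxia libraries, whereas Fkbp5, Jun, Junb, Egr1 and Ier2 stay pale there. Atf3 and Fosl2 lean higher, with log2 fold changes of 0.34 and 0.35 that were not past the threshold.

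Genes with a profile like that of a member were sought among 10840 genes of at least 5 CPM, by the root mean square difference of log2 CPM over the 8 libraries after centring each gene on its own mean. For Per1 the nearest were Spred3 (0.11), Has2 (0.11) and Add2 (0.16), whereas the profile of Per1 itself had a root mean square of 0.65. For Per3, at 0.38, the nearest were Ier3 (0.07), Cdk5r1 (0.08) and Hmcn1 (0.08). For Nr1d1, at 0.35, they were Reln (0.09), Prox1 (0.12) and Ndrg1 (0.13). No clock gene was among the 3 nearest to any other.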

How the data were processed

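Libraries of CD31-bound lung ECs were compared between 4 normoxia and 4 hyperoxia samples, grouped by their titles. The authors deposited whole-number counts per gene and FPKM values for the same genes. Per the labels' processing notes, HISAT2 2.0.5, featureCounts 1.5.0-p3 and build mm10 were used, with no role or order given, and the strand setting and the treatment of multiply mapped reads are not given in the sources used here. The deposited FPKM equalled the count over gene length and library total within a relative deviation of 4e-08 (genes over 20 counts), times 1 constant per library of 0.974 to 1.01. Coordinates of all 10 members equalled those of GENCODE M21 (GRCm38).

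Counts were tested with edgeR 4.0.16 (R 4.3.3) by the quasi-likelihood test with TMM normalization, the default filterByExpr and the group as the only term. Adjusted p-values are those of Benjamini and Hochberg over the 15564 genes tested. SE and 95% intervals follow from the F statistic, log2 fold changes are hyperoxia over normoxia, and log2 CPM used a prior count of 2. The study had used DESeq2. Alternatives were DESeq2 1.42.0, limma 3.58.1 (voom, and log2 FPKM with pseudocounts of 1 and 0.1), other size factors and filters, the replicate number as a block, an epithelial marker score and leaving out each library. Libraries of 1 group differed by more than counting noise, so each was kept as a replicate, and no counting intervals are given. Members and lists were chosen with earlier results of these data known. Named were the 10 members, genes of the lists written from general knowledge, the 3 nearest profiles per member, genes with overlapping exons, and cell type markers. A gene of the lists is not reported here and was left out of their counts. The scripts were tested on simulated data.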

Additional observations from a re-analysis of the deposited data

Results flagged for a closer look

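Among 130 groups of 4 libraries examined (the tested genes of the clock, glucocorticoid and immediate early lists and the summed marker lists in each group), 7 held a library whose gap to its nearest neighbour exceeded the 95% critical value of Dixon for its share of the range of the group, which chance gives in about 1 of 20 groups. Of the clock members, Per2 stood at 41.3 CPM in normoxia 2 against 35.2 to 35.7 CPM in the other 3. Ddb1, a ligase component, stood at 335 CPM in normoxia 2 against 368 to 369 CPM. Fos stood at 916 CPM in hyperoxia 4 against 833 to 838 CPM. Klf9 was at 107 CPM in hyperoxia 1 against 130.3 to 133 CPM, and Atf3 there at 292 CPM against 247 to 255 CPM. Pdk4 was at 1.71 CPM in normoxia 1 against 2.18 to 2.28 CPM. The alveolar type 1 markers summed to 170.1 CPM in hyperoxia 3 against 449 to 497 CPM.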

How the results depend on the processing

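Without a minimum fold change, 5535 genes and 6 members were past the threshold, and with it 1087 genes and 1 member. With the epithelial score as a covariate these were 243 genes and 0 members, and 0 of the other clock genes, 0 of the glucocorticoid-responsive and 0 of the immediate early genes (edgeR, with 1, 5, 2 and 1 at an unadjusted p under 0.05; no other tool was run with this covariate). In that fit the log2 fold changes of Nr1d2, Dusp1 and Mt1 changed sign, to 0.14, -0.0052 and -1.04. With 1 library left out, counts were 4526 to 5445 of all genes, 4 to 6 of the members, 7 to 11 of the other clock genes (7 without hyperoxia 2, against 12 with all libraries), 4 to 6 of the glucocorticoid-responsive and 0 to 4 of the immediate early genes. At an unadjusted p under 0.05 (edgeR), 6 members were counted in each of these fits. The other clock genes then numbered 11 to 16, the glucocorticoid-responsive genes 6 to 7 and the immediate early genes 2 to 5. The cause of these changes was not tested. With either filter, with other size factors, with DESeq2 and with limma on counts or FPKM, 6 members were called. The replicate number as a block gave 6 members, 4792 of all genes and 9 of the other clock genes, 6 of the glucocorticoid-responsive and 2 of the immediate early genes. Same-numbered libraries did not deviate together, with correlations of 0.12, 0.04, -0.13 and -0.14 across genes, and only number 1 correlated best with its own number, so the numbers were not taken as pairs. The median SD of the members in hyperoxia was 0.16 on log2 CPM and 0.161 on log2 FPKM. With 4 libraries a group, changes of any size within the 95% intervals given for Per2, Cry2, Dbp and Clock remain possible.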

Other observations

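Ratios within a library do not depend on its total. The ratio of Tef to Dbp in FPKM was 4.30, 3.88, 3.71 and 4.85 in the 4 normoxia libraries and 5.03, 4.50, 3.73 and 3.47 in the 4 hyperoxia libraries. The ratio of Clock to Arntl was 4.89, 4.95, 6.79 and 5.05 in normoxia and 3.74, 4.47, 5.01 and 5.06 in hyperoxia. In both ratios hyperoxia 1 lay at the edge of its group, highest for Tef to Dbp and lowest for Clock to Arntl.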
